A study of Mus musculus with 9 samples.

Results

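The 9 genes described here, Pde10a, Rgs9, Ptpn5, Adora2a, Gpr6, Isl1, Foxp2, Rarb and Syndig1l, are markers of striatal-type projection neurons, which lie next to the basolateral amygdala in the striatum and the central amygdala. They were found by the Ensembl identifier of each symbol and are 9 of the 54838 identifiers in the count table. All 9 had at least 1 count, and together they held 1093 of 2199270 counts, or 0.0497%. The 5 genes Pde10a, Ptpn5, Isl1, Foxp2 and Syndig1l passed the filter on low counts and were tested, and Rgs9, Adora2a, Gpr6 and Rarb fell below it.

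RNA came from mouse cells cut by laser from fixed frozen tissue, and the 3' ends of polyadenylated RNA were sequenced with the Smart-3SEQ method. The 3 groups, of 3 libraries each, bear the genotype labels mCherry (a red fluorescent reporter protein), c-fos (an immediate early gene whose product marks recently active cells) and overlap. The study compared cells carrying a label called CRD, a label called His, or both, and its title concerns projections of the basolateral amygdala in visceral pain and itch. How CRD and His map onto the mCherry and c-fos groups is not stated, and neither are the strain, age, sex, promoter, virus or treatment behind each group.

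The labels tie no library to an animal, so libraries of a group may share one, and p-values would then be too small. As it stands, a p-value reflects the variation among these 9 libraries, some of which may be technical. Total counts ran from 90091 in overlap 1 to 429317 in mCherry 2, so that 3 counts, the limit that a count of 0 allows, equalled 33.3 CPM (counts divided by the library's total and put on 1 common scale) in overlap 1 and 6.99 CPM in mCherry 2. The libraries mCherry 3, with the lowest TMM scaling factor (0.650), and overlap 1, the shallowest, stood apart from the others. Fos, the gene behind the c-fos label, was at 163, 54.9 and 46.4 TMM-scaled CPM in mCherry 1 to 3, at 334, 266 and 284 in c-fos 1 to 3 and at 532, 297 and 206 in overlap 1 to 3. The labels also name spermatocytes and testis as the source. Of 22 spermatocyte genes, 18 had a count and none passed the filter, with Sycp1, Spo11, Mael and Pgk2 at 0. Their summed level was 104 to 593 CPM in mCherry, 266 to 331 in c-fos and 151 to 277.5 in overlap, and the highest value, in mCherry 3, was mostly Tnp1 (103 of 118 counts). Their part in the results was not tested.

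Striatal-type projection neurons release GABA and receive dopamine and glutamate. In them, dopamine and adenosine receptors raise or lower cyclic AMP through G proteins, phosphodiesterases break the cyclic nucleotides down, and RGS proteins shorten the G protein signal. Isl1, Foxp2 and Rarb encode transcription factors that act while these neurons take on their identity. Several of the 9 genes are not restricted to the striatum: Pde10a, Ptpn5 and Foxp2 are also transcribed in other forebrain neurons, and Isl1 also in cholinergic neurons.

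Most of the counts came from 3 of the 9 genes. Pde10a, Ptpn5 and Foxp2 held 839 of the 1093 counts (76.8%). Because Smart-3SEQ counts the 3' end of each transcript, levels were compared between genes as CPM without division by length. Over the 9 pooled libraries Ptpn5 had 336 counts, Pde10a 264, Foxp2 239, Isl1 94, Syndig1l 79, Rarb 51, Rgs9 23, Gpr6 4 and Adora2a 3. Several other genes used as markers of striatal projection neurons were low on the same pooled scale. Ppp1r1b (DARPP-32, the phosphatase inhibitor that relays dopamine signals) had 10 counts in 3 libraries, Drd1 (the D1 dopamine receptor) 22 counts in 6 libraries, and Drd2 (the D2 receptor) 43 counts in 5 libraries. Ppp1r1b is also listed here with the basolateral amygdala genes, and Drd1 with the intercalated cell genes. The neuropeptide genes Penk, Tac1 and Pdyn, also listed with the central amygdala genes, had 18, 21 and 7 counts. These counts were uneven: Drd2 reached 97.8 and 56.3 TMM-scaled CPM in c-fos 1 and c-fos 2, and Tac1 53.1 in c-fos 2 and 43.4 in overlap 1, with 0 counts in the other 7 libraries. Other genes of the striatal list were abundant, such as Rasd2 with 1046 counts and Arpp21, a cyclic AMP regulated phosphoprotein gene also transcribed in cortical neurons, with 995. Bcl11b, a transcription factor of striatal and deep cortical neurons, had 281 counts in all 9 libraries, and Slc17a7, the vesicular glutamate transporter of cortical-type excitatory neurons, had 549. The name striatal projection markers therefore describes the choice of these genes, and the dopamine receptor, DARPP-32 and neuropeptide genes were low over the pooled libraries and at 0 in several of them.

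**Figure D1:**
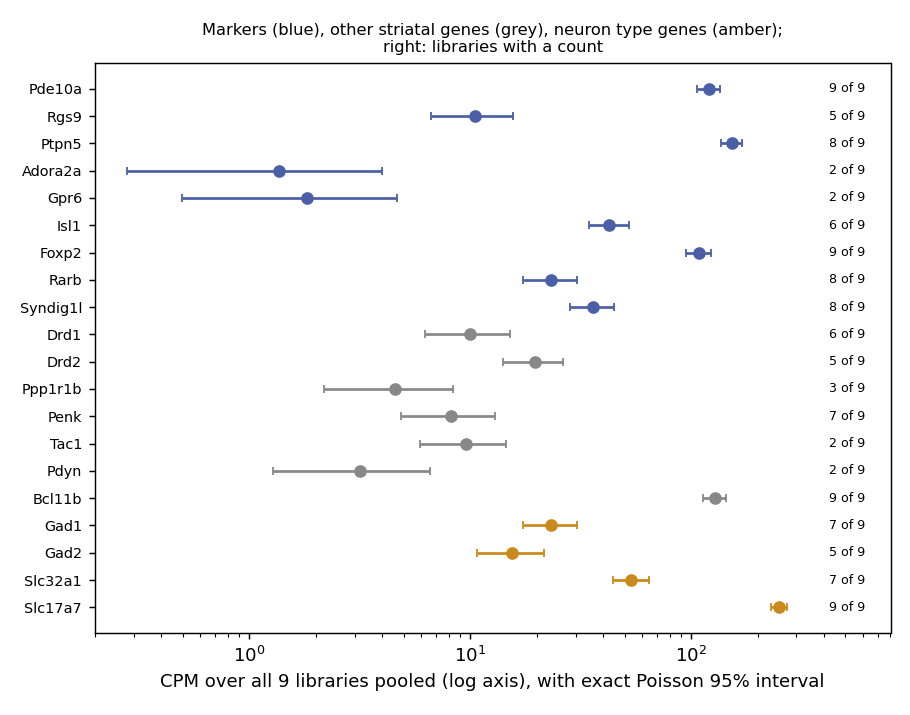
Level of the 9 markers (blue), 7 other striatal genes (grey) and 4 genes of GABAergic or glutamatergic neurons (amber) over all 9 libraries pooled, as CPM on a log axis with the exact Poisson 95% interval, which covers counting error only. Pde10a (120 CPM) lay far above Ppp1r1b (4.55 CPM) and Drd1 (10 CPM), while Adora2a and Gpr6 lay among the lowest. The text at the right gives the number of libraries with a count.

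No member passed the threshold in any comparison. With edgeR's quasi-likelihood test and an adjusted p under 0.05, 0 of 5 tested members were called between c-fos and mCherry, beside 0% of all 7959 tested genes. Between overlap and mCherry 0 of 5 were called beside 0.0251% of all genes, between overlap and c-fos 0 of 5 beside 0%, and for any difference among the groups 0 of 5 beside 0.0377%. At an unadjusted p under 0.05, Isl1 and Foxp2 stood out between c-fos and mCherry (2 of 5, beside 7.95% of all genes) and Isl1 between overlap and c-fos (1 of 5, beside 5.11%). Between overlap and mCherry it was 0 of 5, beside 14.2%, and for any difference among the groups it was Isl1 alone (1 of 5, beside 10.3%). In the fit without the filter, 0 of the 4 members below it were called, beside 0.973%, 1.32% and 0.158% of all genes for c-fos against mCherry, overlap against mCherry and overlap against c-fos. DESeq2 called 0 of the members for which it gave an adjusted p, and it gave none for Isl1 and Syndig1l between c-fos and mCherry. In bulk libraries such as these, fewer cells of a type and less RNA per cell cannot be told apart. The contrasts share libraries with each other, so their values are given side by side.

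**Figure D2:**
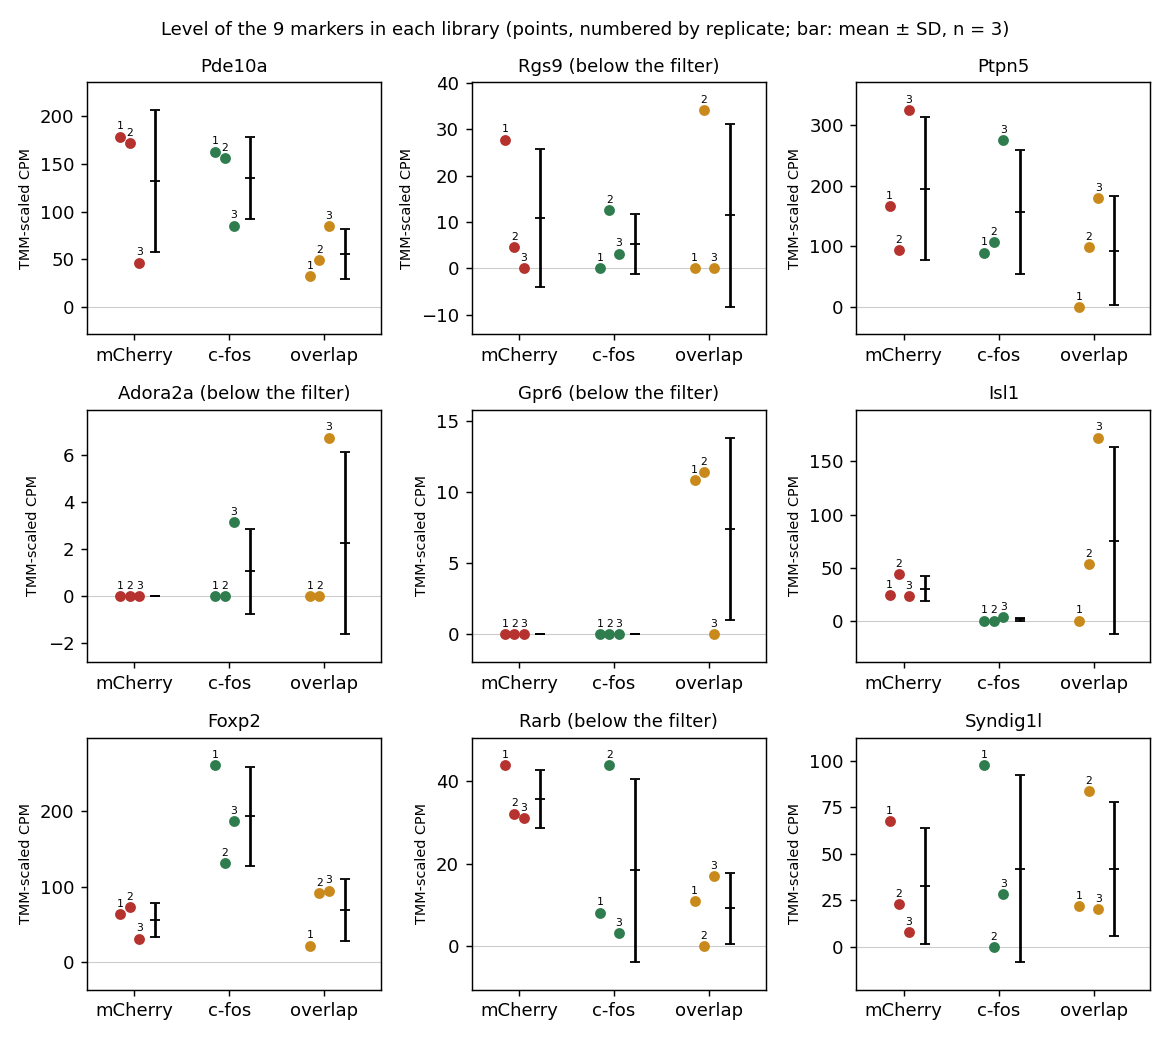
TMM-scaled CPM of each of the 9 markers in each library, with points numbered by replicate and the mean ± SD (n = 3) of each group at the right of its points. Isl1 was at 0, 0 and 3.16 in the c-fos libraries and Foxp2 at 131 to 261 there, while Adora2a and Gpr6 were at 0 in nearly all libraries. Vertical axes differ between genes.

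Among the enzymes and signal regulators, Pde10a encodes the dual cyclic AMP and cyclic GMP phosphodiesterase of striatal projection neurons. Its TMM-scaled CPM was 179, 172 and 46.4 in mCherry 1 to 3, 163, 156 and 85.2 in c-fos 1 to 3, and 32.6, 49.4 and 84.6 in overlap 1 to 3. The mCherry and c-fos libraries covered much the same range except for the low mCherry 3, and all 3 overlap libraries lay below all 3 c-fos libraries, the highest of them only just. Group means were 132 ± 74.4 in mCherry, 135 ± 43.1 in c-fos, and overlap had 55.5 ± 26.5 (SD, n = 3). Its log2 fold change was 0.01 ± 0.78 (SE) for c-fos against mCherry (edgeR adjusted p = 1), -1.23 ± 0.795 for overlap against mCherry (adjusted p = 0.524) and -1.23 ± 0.798 for overlap against c-fos (adjusted p = 0.956). With DESeq2 size factors, or with scaling on the 200 most abundant genes, the overlap and c-fos libraries did overlap for this gene.

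Ptpn5 encodes STEP, the striatal-enriched tyrosine phosphatase that acts on kinases and glutamate receptors at synapses. It was at 167, 93.8 and 325 TMM-scaled CPM in mCherry 1 to 3, at 89.6, 106 and 274.5 in c-fos 1 to 3, and at 0, 98.9 and 179 in overlap 1 to 3. The spread within each group was as wide as the distance between groups, with the highest value in mCherry 3 and none of its 336 counts in overlap 1. Means were 195 ± 118, 157 ± 102 and 92.7 ± 89.8 (SD, n = 3) in the same order. Its log2 fold change was -0.29 ± 0.945 for c-fos against mCherry (edgeR adjusted p = 0.997), -1.001 ± 0.957 for overlap against mCherry (adjusted p = 0.689) and -0.71 ± 0.952 for overlap against c-fos (adjusted p = 0.99). Without mCherry 3 and overlap 1, the values against mCherry were 0.28 and 0.11. With a single library left out, overlap against mCherry was -1.999 without overlap 3, -0.41 without mCherry 3 and -0.46 without overlap 1, and overlap against c-fos was 0.0200 without c-fos 3 and -1.51 without overlap 3.

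Rgs9 encodes a G protein regulator whose long splice form is enriched in the striatum; the counts do not separate splice forms. It had 7, 2 and 0 counts in mCherry 1 to 3, 0, 4 and 1 in c-fos 1 to 3, and 0, 9 and 0 in overlap 1 to 3. Counts were thus spread thinly over 5 libraries, with the most in overlap 2. In the edgeR fit without the filter on low counts, its log2 fold changes were -0.90 ± 2.32, 0.09 ± 2.27 and 0.99 ± 2.32 for c-fos against mCherry, overlap against mCherry and overlap against c-fos (adjusted p = 0.986, 1 and 0.959). Standard errors of that size leave differences of several-fold undetectable at this depth.

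The 2 receptor genes were close to undetected. Adora2a encodes the adenosine receptor of indirect-pathway striatal neurons. It had 1 count in c-fos 3, 2 counts in overlap 3 and 0 in the other 7 libraries. All groups were at or under the floor of 3 counts, so no fold is given. Gpr6 encodes an orphan receptor of the same neurons that keeps cyclic AMP high. It had 1 count in overlap 1, 3 counts in overlap 2 and 0 in the other 7 libraries. Its 4 overlap counts, 3 of them in overlap 2, came to 6.68 CPM over the summed group. The exact Poisson 95% interval of the ratio to 0 counts began at 0.979 against mCherry and at 0.786 against c-fos, so a difference was not detectable at this depth. In the fit without the filter the adjusted p of Gpr6 was 1, 0.559 and 0.701 in the 3 contrasts, and that of Adora2a was 0.746, 0.626 and 0.984. Drd2, which the same indirect-pathway neurons transcribe, had 3, 0 and 0 counts in mCherry 1 to 3, 12, 18 and 0 in c-fos 1 to 3, and 0, 5 and 5 in overlap 1 to 3. The libraries with the most Drd2 counts, c-fos 1 and c-fos 2, held no count of Adora2a or Gpr6.

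Among the tested members, Isl1 had the widest differences, and it is 1 of 3 transcription factor genes. Isl1 encodes a LIM-homeodomain factor of direct-pathway striatal neurons and of cholinergic neurons. Its counts were 6, 19 and 3 in mCherry 1 to 3, 0, 0 and 1 in c-fos 1 to 3, and 0, 14 and 51 in overlap 1 to 3. In TMM-scaled CPM this was 23.8, 43.5 and 23.2 in mCherry, 0, 0 and 3.16 in c-fos, and 0, 53.2 and 173 in overlap. All mCherry libraries lay above all c-fos libraries. The overlap libraries ran from no count in the shallow overlap 1 to the highest level of the series in overlap 3. Of all 94 counts, 54.3% were in overlap 3. Its means were 30.2 ± 11.5 in mCherry, 1.05 ± 1.82 in c-fos, and overlap had 75.3 ± 88.4 (SD, n = 3).

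Isl1 had a log2 fold change of -4.14 ± 1.70 for c-fos against mCherry (edgeR adjusted p = 0.568, rank 371 of 7959 genes by p). For overlap against c-fos it was 5.47 ± 1.74 (adjusted p = 0.792, rank 59). For overlap against mCherry it was 1.33 ± 1.34 (adjusted p = 0.708), and -0.16 without overlap 3. In summed counts, mCherry exceeded c-fos 22.5-fold (28 counts against 1, exact Poisson 95% interval 3.71 to 918), an interval that covers counting error between the pooled groups and not the spread between libraries. With every library thinned to 90091 counts, Isl1 was at 4, 4 and 3 counts in mCherry, 0 in each c-fos library, and 0, 5 and 15 in overlap. At 0 counts the limit for c-fos 1 was 27.5 CPM, above the 23.1 and 15.1 CPM of the total count in mCherry 1 and mCherry 3, so this library alone could not show a lower level. Without c-fos 3, which held the single c-fos count, the log2 fold changes were -5.86 for c-fos against mCherry and 7.27 for overlap against c-fos.

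Isl1 is a marker of cholinergic neurons too, so the genes of those neurons are given beside it. Chat, the enzyme that makes acetylcholine, had 1, 13 and 2 counts in mCherry 1 to 3, 10, 11 and 4 in c-fos 1 to 3, and 27, 13 and 26 in overlap 1 to 3. The highest Chat level, 293 TMM-scaled CPM, was in overlap 1, where Isl1 had no count. At 0 counts the limit for overlap 1 was 33.3 CPM, above the 23.1 and 15.1 CPM of Isl1 in mCherry 1 and mCherry 3. The other defining cholinergic genes were at or near 0, with 0 counts of the vesicular transporter gene Slc18a3 and 1 count each of Slc5a7, Lhx8 and Gbx2 in all 9 libraries. The summed level of the 7 cholinergic genes ranged from 7.69 to 30.3 CPM in mCherry, from 29.6 to 110 in c-fos and from 66.5 to 322 in overlap. This sum was mostly Chat, which held 107 counts over the 9 libraries. The part of the cholinergic genes in the Isl1 result was not tested.

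Because c-fos and cyclic AMP signalling act through AP-1 and CRE motifs, the promoter windows of the members were searched for them. RefSeq windows (GRCm38.p6, 250 bases before to 50 after the start) were found for 6 of the 9 members. The searched letters, on both strands, were TGACGTCA (CRE), TGACG (its half-site, contained in the CRE) and TGANTCA (AP-1). Of all 32851 promoter windows, 1.79% held the CRE, 20.8% the half-site and 7.81% the AP-1 letters. Isl1 and Gpr6 are shown because they were the members with a match, at chr13:116309639-116309938 and chr10:41072241-41072540, both on the minus strand, with the matched letters in capitals.
Isl1: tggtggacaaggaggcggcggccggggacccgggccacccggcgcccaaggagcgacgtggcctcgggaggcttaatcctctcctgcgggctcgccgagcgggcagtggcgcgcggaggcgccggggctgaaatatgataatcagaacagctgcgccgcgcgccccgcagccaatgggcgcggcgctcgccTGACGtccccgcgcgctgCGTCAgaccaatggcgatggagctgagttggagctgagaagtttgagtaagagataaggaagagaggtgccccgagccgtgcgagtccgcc
Gpr6: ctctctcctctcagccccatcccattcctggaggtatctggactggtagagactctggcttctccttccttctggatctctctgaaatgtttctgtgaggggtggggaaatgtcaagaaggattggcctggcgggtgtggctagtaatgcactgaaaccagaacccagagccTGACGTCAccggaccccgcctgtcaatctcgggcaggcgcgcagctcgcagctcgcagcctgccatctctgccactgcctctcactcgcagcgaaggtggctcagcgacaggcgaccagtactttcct
The Isl1 window held 2 half-sites, one on each strand, and no full CRE, and the Gpr6 window held 1 full CRE. The windows of Pde10a, Rgs9, Ptpn5 and Rarb held 0 matches. These are matches of letters, given as a description.

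Foxp2 encodes a forkhead factor of striatal projection neurons, of the intercalated cells of the amygdala and of deep cortical neurons. It was at 63.5, 73.2 and 30.9 TMM-scaled CPM in mCherry 1 to 3, at 261, 131 and 186 in c-fos 1 to 3, and at 21.7, 91.3 and 94.7 in overlap 1 to 3. The 3 c-fos libraries were the 3 highest of all 9, while the ranges of mCherry and overlap overlapped, with overlap 2 and overlap 3 above all mCherry libraries and overlap 1 below them. Means were 55.9 ± 22.2, 193 ± 65.0 and 69.25 ± 41.2 (SD, n = 3) in the same order. Its log2 fold change was 1.74 ± 0.798 for c-fos against mCherry (edgeR adjusted p = 0.605, rank 574) and -1.42 ± 0.791 for overlap against c-fos (adjusted p = 0.947). For overlap against mCherry it was 0.33 ± 0.789 (adjusted p = 0.901). Thinned to 90091 counts, Foxp2 was at 5, 7 and 2 counts in mCherry, 26, 11 and 18 in c-fos, and 2, 12 and 8 in overlap.

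Other genes of inhibitory amygdala neurons are given beside Foxp2. Tshz1, a zinc finger gene of intercalated cells, had 79.4, 13.7 and 7.74 TMM-scaled CPM in mCherry 1 to 3, 179, 159 and 136 in c-fos 1 to 3, and 890.5, 202 and 10.2 in overlap 1 to 3. Its c-fos libraries, like those of Foxp2, all lay above the mCherry libraries (log2 fold change 2.18 ± 1.11, edgeR adjusted p = 0.674), but the overlap libraries ran from 10.2 to 890.5. Pax6, another intercalated cell gene, went the other way, with a log2 fold change of -2.17 ± 0.959 for c-fos against mCherry (edgeR adjusted p = 0.58) and -2.30 ± 0.966 for overlap against mCherry (adjusted p = 0.311). Its TMM-scaled CPM was 135, 66.4 and 1145 in mCherry 1 to 3, 179, 96.9 and 25.2 in c-fos 1 to 3, and 119.5, 79.9 and 74.4 in overlap 1 to 3, so that mCherry 3 stood far above the rest and the groups overlapped. Slc32a1, the vesicular GABA transporter, had 11, 4 and 0 counts in mCherry 1 to 3, 30, 26 and 30 in c-fos 1 to 3, and 16, 1 and 0 in overlap 1 to 3. Its log2 fold change for c-fos against mCherry was 2.88 ± 1.47 (edgeR adjusted p = 0.678). The summed level of the 19 genes of GABAergic neurons was 211 to 538 CPM in mCherry, 522 to 779 in c-fos and 445 to 558 in overlap. Cck (320 counts) and Reln (197 counts) held the most counts of that list. Their log2 fold changes for c-fos against mCherry were -0.64 ± 0.727 and 1.06 ± 1.07 (edgeR adjusted p = 0.956 and 0.929). For the 10 intercalated cell genes the sums were 300.5 to 769, 443 to 807 and 138 to 1465 CPM. Gad1 and Gad2, which make GABA, were below the filter, with 51 and 34 counts in all. Their part in the Foxp2 result was not tested.

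Rarb encodes retinoic acid receptor beta, a nuclear receptor that takes part in striatal development. Its counts were 11, 14 and 4 in mCherry 1 to 3, 1, 14 and 1 in c-fos 1 to 3, and 1, 0 and 5 in overlap 1 to 3. All mCherry libraries lay above all overlap libraries in TMM-scaled CPM (30.9 to 43.7 against 0 to 16.9), though not with scaling on the 200 most abundant genes, and c-fos 2 was as high as the highest mCherry library. The summed counts, 29 in mCherry and 6 in overlap, gave a ratio of 3.26 (exact Poisson 95% interval 1.33 to 9.6, counting error only). In the edgeR fit without the filter its log2 fold change was -0.90 ± 1.84 for c-fos against mCherry (adjusted p = 0.948), -1.90 ± 1.94 for overlap against mCherry (adjusted p = 0.68) and -0.99 ± 1.91 for overlap against c-fos (adjusted p = 0.919). Rarb shares a stretch with Top2b, a gene on the other strand with 68 counts. Whether counting used strand is not given, so reads within that stretch may come from either gene.

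Syndig1l encodes a small transmembrane protein enriched in the striatum and related to the synapse protein SynDIG1. Its TMM-scaled CPM was 67.5, 22.9 and 7.74 in mCherry 1 to 3, 97.8, 0 and 28.4 in c-fos 1 to 3, and 21.7, 83.7 and 20.3 in overlap 1 to 3. Each group held 1 high library and 2 low ones, and the ranges overlapped throughout. Log2 fold changes were 0.26 ± 1.42, 0.36 ± 1.40 and 0.09 ± 1.40 for c-fos against mCherry, overlap against mCherry and overlap against c-fos (edgeR adjusted p = 0.997, 0.939 and 1). Each changed its sign when 1 library was left out, for c-fos against mCherry to -1.21 without c-fos 1.

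**Figure D3:**
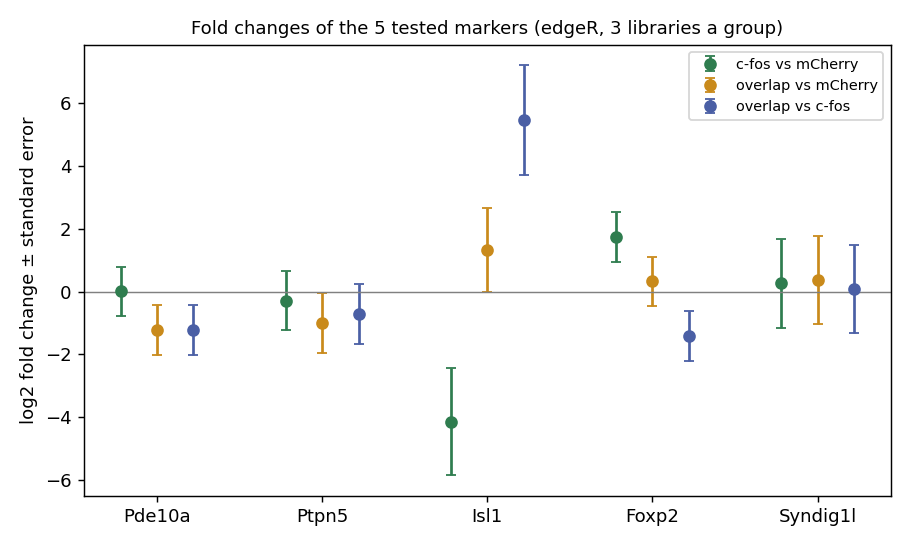
Log2 fold change ± standard error of the 5 tested markers in the 3 comparisons, from edgeR's fit of all 9 libraries. The widest differences were those of Isl1, -4.14 for c-fos against mCherry and 5.47 for overlap against c-fos, and none of the 15 values passed an adjusted p of 0.05.

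Counted by whether groups overlapped in TMM-scaled CPM, Foxp2 (above) and Isl1 (below) separated c-fos from mCherry, 2 of the 5 tested members, beside 15.7% of all tested genes (8.61% above, 7.11% below). Between overlap and c-fos, Pde10a and Foxp2 were both lower in overlap (2 of 5, beside 13% of all genes, 9.17% lower and 3.78% higher), of which neither separated with scaling on the 200 most abundant genes. Between overlap and mCherry it was 0 of 5, beside 17.6% (5.96% above, 11.6% below). The median log2 fold change of the 5 tested members was 0.01 for c-fos against mCherry, 0.33 for overlap against mCherry and -0.71 for overlap against c-fos, where the median of all 7959 genes was -0.03, -0.10 and -0.02. The 4 members below the filter are not in these counts and medians.

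The summed level of the 9 members was 554, 449.6 and 302 CPM of the total count in mCherry 1 to 3, 697, 482 and 611 in c-fos 1 to 3, and 99.9, 492 and 600.8 in overlap 1 to 3. The lowest value was in overlap 1, which held 9 member counts, and the groups overlapped. Group means were 435 ± 127, 596.5 ± 108 and 397.5 ± 263 CPM (SD, n = 3), log2 ratios of 0.46 for c-fos to mCherry, -0.13 for overlap to mCherry and -0.59 for overlap to c-fos. Without overlap 1 the last 2 were 0.33 and -0.13. The makeup of the sum also differed between libraries. Ptpn5 made up 70% of the member counts in mCherry 3 and 0% of the 9 in overlap 1, Foxp2 42.1% in c-fos 1, and Isl1 30% in overlap 3.

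**Figure D4:**
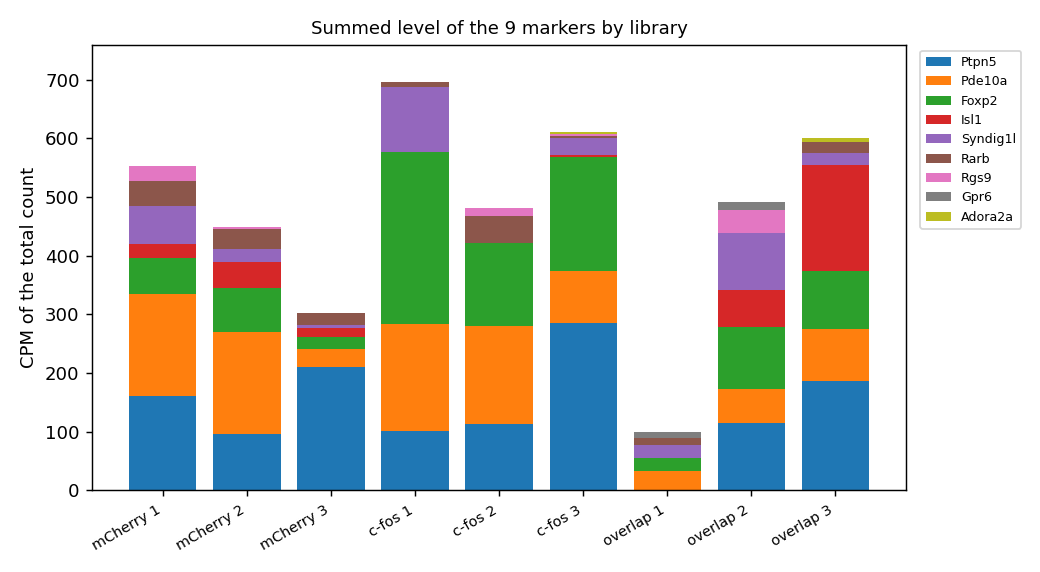
Summed CPM of the 9 markers in each library, with each gene's share stacked from 0. The sum was lowest in overlap 1 (99.9 CPM) and highest in c-fos 1 (697 CPM), Foxp2 took a large part of each c-fos bar, and Isl1 was visible mainly in overlap 2 and overlap 3.

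Of the other genes of striatal projection neurons, 34 of 35 were in the table and 16 were tested, with 0 called higher and 0 called lower in each of the 3 comparisons by edgeR. Their median log2 fold changes were 0.10, 0.02 and 0.26 for c-fos against mCherry, overlap against mCherry and overlap against c-fos. Rasd2 (Rhes), a striatal small GTPase that dampens dopamine receptor signalling, had the smallest p of this list in all 3. It was at 917, 879 and 572 TMM-scaled CPM in mCherry 1 to 3, at 570, 300 and 199 in c-fos 1 to 3, and at 163, 312 and 105 in overlap 1 to 3. All mCherry libraries lay above all overlap libraries in each of the 5 scalings. The mCherry and c-fos libraries met at mCherry 3 and c-fos 1, and they overlapped with upper quartile scaling, total count scaling (372 CPM in mCherry 3, 642 in c-fos 1) and scaling on the 200 most abundant genes. Its log2 fold change was -2.03 ± 0.548 for overlap against mCherry (edgeR adjusted p = 0.17) and -1.16 ± 0.533 for c-fos against mCherry (adjusted p = 0.605). Foxp1, a forkhead relative of Foxp2, had a log2 fold change of 0.85 ± 0.538 for c-fos against mCherry (edgeR adjusted p = 0.801). Rasgrp2, with 75 counts, went the other way from Rasd2, at 2.14 ± 1.16 for overlap against mCherry (edgeR adjusted p = 0.437). It was at 27.8, 11.4 and 7.74 TMM-scaled CPM in mCherry 1 to 3 and at 32.6, 31.3 and 18.9 in c-fos 1 to 3. In overlap 1 to 3 it was at 97.7, 76.1 and 44.0. Of the 16 tested genes, 8 had a positive and 8 a negative value for overlap against mCherry.

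Dopamine and cyclic AMP signalling was followed in 39 genes, Pde10a, Rgs9 and Adora2a among them. Of these 26 were tested and 0 were called in either direction in any comparison by edgeR, with median log2 fold changes of 0.00, -0.31 and -0.14. Pde4a, a cyclic AMP phosphodiesterase, had a log2 fold change of -2.33 ± 0.885 for c-fos against mCherry (edgeR adjusted p = 0.562), but mCherry 3 alone held 294 of its counts against 68 and 106 in the other mCherry libraries. Pde1a, a calcium-dependent phosphodiesterase, had -2.09 ± 0.908 for overlap against mCherry (edgeR adjusted p = 0.315), and Pde1b -1.23 ± 0.719 (adjusted p = 0.48). Prkar1b, a regulatory subunit of protein kinase A, had -0.87 ± 0.379 for c-fos against mCherry (edgeR adjusted p = 0.572). Prkar2a, another such subunit, went the other way, at 1.40 ± 0.764 for c-fos against mCherry (edgeR adjusted p = 0.712). For overlap against mCherry it was at 1.535 ± 0.771 (adjusted p = 0.394). Of the 26 tested genes, 13 had a positive and 13 a negative value for c-fos against mCherry, and 8 and 18 for overlap against mCherry.

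For the central amygdala, 4 of 17 genes were tested and 0 were called in any comparison by edgeR. Prkcd, the kinase that marks a class of lateral central amygdala neurons, was at 71.8 ± 20.6 TMM-scaled CPM in mCherry, 50.7 ± 29.9 in c-fos, and overlap had 31.2 ± 18.1 (SD, n = 3). Zfhx3, a zinc finger homeobox gene, was at 195.5 ± 62 in mCherry, 299.6 ± 124 in c-fos, and overlap had 335 ± 109. Neither order was past the threshold. On the excitatory side, 10 of 11 tested basolateral amygdala genes and 7 of 10 tested glutamatergic genes had a negative log2 fold change for overlap against mCherry, with medians of -1.16 and -0.80 and 0 called, where 52.7% of all tested genes had a negative value. With scaling on the 200 most abundant genes the counts were 7 of 11 and 5 of 10, the medians -0.35 and -0.0323, and 32% of all genes were negative with a median of 0.64. With TMM, Rorb (3.19 ± 1.49, edgeR adjusted p = 0.347) and Fezf2 (4.17 ± 1.72, adjusted p = 0.299) went the other way for overlap against mCherry. For c-fos against mCherry, 9 of 11 and 6 of 10 were negative with TMM, beside 51.1% of all genes. For overlap against c-fos it was 8 of 11 and 7 of 10, beside 50.5%. With the 200 most abundant genes these were 6 of 11 and 5 of 10 (beside 37.4%), and 5 of 11 and 3 of 10 (beside 36.8%). Slc17a7 was at 306, 508 and 178 TMM-scaled CPM in mCherry 1 to 3, at 65.2, 125 and 170 in c-fos 1 to 3, and at 21.7, 141 and 291 in overlap 1 to 3. Its log2 fold change for c-fos against mCherry was -1.45 ± 0.789 (edgeR adjusted p = 0.712). The mCherry libraries lay above the c-fos libraries by a narrow margin, which was lost with upper quartile scaling, total count scaling (116 CPM in mCherry 3, 177 in c-fos 3) and scaling on the 200 most abundant genes.

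Over the 9 libraries the members did not share 1 profile. Among the 10 pairs of tested members, Pearson's r of log2 TMM-scaled CPM ran from -0.169 to 0.598, the highest for Pde10a with Foxp2. Genes with a profile among the most like each member, as Pearson's r over the same 9 libraries, were Clptm1 (0.945), Faah (0.932) and Tecr (0.932) for Pde10a, and Rspry1 (0.962) and R3hdm1 (0.96) for Ptpn5. For Isl1 they were Gnptab (0.967), Ttc21a (0.939) and Mien1 (0.908), and for Foxp2 Gnb2 (0.956), Nlrc3 (0.939) and Slc4a4 (0.938). For Syndig1l they were Zfp811 (0.887), Dapk2 (0.878) and Ino80e (0.868). These are among the highest of 7959 correlations over libraries that share depth and composition, and they are given as a description.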

How the data were processed

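Per the labels' protocols, cells were cut by laser and libraries made with Smart-3SEQ. The authors deposited whole-number counts per gene and library. The submitters' processing notes list featureCounts, UMI-tools, STAR and Trim Galore with build mm9. Versions, settings, collapsing by molecular identifier and use of strand are not stated. Poisson intervals and floors treat each count as a separate molecule and leave out the spread between libraries. If duplicates were not collapsed, the intervals are too narrow and the floors too low. Of the 9 members, 5 overlap another annotated gene in GENCODE for GRCm38, which was used for names and overlaps only. Symbols were found for 54723 of 54838 identifiers.

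The deposited counts of all 9 libraries entered 1 fit with R 4.3.3 and edgeR 4.0.16. Genes were kept by filterByExpr (minimum count 10), scaled by TMM and tested two-sided by quasi-likelihood, with p-values adjusted by Benjamini-Hochberg over all 7959 tested genes and called under 0.05. The biological coefficient of variation was 0.856. Members below the filter were read from the same fit of 26012 genes without it. Alternatives were other scalings, other filters, DESeq2 1.42.0, fits of 2 groups, a replicate block and libraries left out. The edgeR fit was tested on data simulated with the same dispersion for every gene, unlike real genes. Recovery of the size of a simulated fold change was checked at a lower dispersion than that of these libraries. At the common dispersion of these libraries it called almost none of the changed genes.

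The 9 members and the gene lists were chosen with earlier results of these data known. Besides the members and reference genes (Fos and defining markers of neuron types), the rule names up to 4 tested genes per list and comparison with the smallest unadjusted p, and 3 genes of most similar profile per tested member, by correlation of log2 TMM-scaled CPM with a prior count of 2. A gene that the rule takes as a reference and another that it takes by profile are not reported here. Pdyn, Sycp1, Spo11, Mael, Pgk2, Slc18a3, Slc5a7, Lhx8, Gbx2, Tnp1, Arpp21 and Top2b were named outside the rule, after their values were seen.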

Additional observations from a re-analysis of the deposited data

How the results depend on the processing

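Over 272 alternative values of the members' fold changes, 0 reached an adjusted p of 0.05, 247 kept their direction and 25 reversed. The lowest adjusted p was 0.135 (Isl1, overlap against c-fos, DESeq2). The Isl1 log2 fold change stayed between -5.86 and -3.63 for c-fos against mCherry and between 4.07 and 7.27 for overlap against c-fos. That of Foxp2 for c-fos against mCherry stayed between 1.44 and 2.11. Isl1 and Syndig1l were not tested with a minimum count of 20. Scaling on the 200 most abundant genes moved the median of all genes by 0.368, 0.743 and 0.393 in the 3 contrasts, and total count scaling by 0.257, 0.273 and -0.002. DESeq2 size factors moved it by 0.00438, 0.224 and 0.223, and upper quartile scaling by 0.119, -0.0495 and -0.177. Reversals with no library left out were those of Syndig1l for overlap against c-fos with upper quartile scaling (-0.0322), Ptpn5 for c-fos against mCherry with total count scaling (0.11) or the 200 most abundant genes (0.10), and Pde10a for c-fos against mCherry without the filter (-0.00916) or with only the 2 groups (-0.0214). Without mCherry 3 and overlap 1, chosen after seeing the data, c-fos against mCherry was -0.42 for Pde10a, 0.28 for Ptpn5 and -0.21 for Syndig1l, and overlap against mCherry 0.11 for Ptpn5. Leaving out 1 replicate at a time, c-fos against mCherry ran from -0.40 to 0.29 for Pde10a, from -0.92 to 0.27 for Ptpn5 and from -1.21 to 1.25 for Syndig1l. Overlap against mCherry ran from -0.16 to 1.87 for Isl1, from -1.999 to -0.41 for Ptpn5 and from -0.68 to 1.37 for Syndig1l, and overlap against c-fos from -1.51 to 0.0200 for Ptpn5 and from -0.94 to 1.55 for Syndig1l. The causes were not tested.

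Over all genes, calls for c-fos against mCherry (0 in the reported fit, 633 at an unadjusted p under 0.05) were 1 with upper quartile scaling, total count scaling, the 200 most abundant genes, a minimum count of 20, or without mCherry 3 and overlap 1. They were 253 with no filter, 3 with DESeq2, and 0 to 2 with 1 replicate left out. For overlap against mCherry (2) they were 0 with DESeq2 size factors, upper quartile scaling, total count scaling, the 200 most abundant genes, a minimum count of 20, only the 2 groups, or without mCherry 3 and overlap 1. They were 344 with no filter, 188 with DESeq2, and 2 to 21 with 1 replicate left out. For overlap against c-fos (0, and 407 at an unadjusted p under 0.05) they were 41 with no filter, 6 with DESeq2, 1 with only the 2 groups, 1 without mCherry 3 and overlap 1, and 0 to 8 with 1 replicate left out. For any group (3) they were 1 with upper quartile scaling, DESeq2 size factors, the 200 most abundant genes, a minimum count of 20, or without mCherry 3 and overlap 1. They were 504 with no filter and 0 to 53 with 1 replicate left out. With the replicate block, calls were 12 for overlap against mCherry, 3 for overlap against c-fos and 10 for any group, with no member among them. Libraries of the same number did not deviate together (9 pairs, r from -0.0283 to 0.0382). At this depth and spread such a correlation can miss a shared animal, so whether the numbers pair the samples is not known.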
